A study of Saccharomyces cerevisiae with 12 samples.

Results

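Budding yeast with the AFT1-C291F allele was set against wild type (WT) by messenger RNA sequencing. AFT1-C291F, titled Aft1-1up in the labels, is a point change in the activator of the iron genes, known as a form that stays active when iron is plentiful. The comparison is the AFT1-C291F library over WT replicate 2, which is 2 of the 12 libraries of the series and 1 library a side, so no difference in it has a replicate check. All strains have the BY4741 background and grew to exponential phase in YPD, a rich glucose medium. The same table holds mmm1Δ replicate 2 and sam37Δ, which lack genes of mitochondrial membrane contacts and outer membrane assembly, and VPS13-D716H, an allele of a lipid transfer protein known to relieve loss of the contact, with or without each of these deletions. Other tables hold mmm1Δ replicate 1, mdm34Δ and WT replicate 1, and WT in a medium called clean YPD with or without 100 µM of the iron chelator bathophenanthroline disulfonate (BPS) for 4 hours. The labels do not say how the AFT1 allele is carried, whether normal AFT1 is also present, or how many clones were grown.

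In the AFT1-C291F library most genes of the iron regulon stood far above WT. Of 30 listed members, 28 had a mean of at least 5 FPKM (fragments per kilobase of gene, scaled for library size), and 24 of these were at least 2-fold higher, none at least 2-fold lower, in a comparison where 15.6% of all genes were higher and 14.2% lower. FIT1 and FRE2, at 2.85 and 3.19 FPKM in WT, passed that filter only through AFT1-C291F. In such bulk RNA, fewer cells that hold a message and less message per cell cannot be told apart. The cell wall proteins FIT1, FIT2 and FIT3 and the siderophore transporters ARN2 and SIT1 differed most. Genes for succinate dehydrogenase, the cytochrome bc1 complex and cytochrome c oxidase were lower, every listed subunit by at least 2-fold. The other 6 regulon members were not 2-fold higher. The mitochondrial genes MRS4, ISU1 and ISU2 and the gene ECM4 were within 2-fold of WT. The small gene LSO1 and BNA2 did not reach a mean of 5 FPKM.

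Aft1 enters the nucleus and binds short promoter elements when mitochondria make too few iron-sulfur clusters. Clusters carried by the glutaredoxins Grx3 and Grx4 with Fra2 (Bol2) release Aft1 from DNA when iron is sufficient. Its targets take up iron at the cell surface, release it from the vacuole, and spare it by the decay of messages for iron-using proteins. The title of the series ties the contact between the endoplasmic reticulum and mitochondria to iron control, and the AFT1-C291F library stands in it for an activated Aft1 with no contact gene deleted.

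The codon behind the allele is shown because the whole comparison rests on it. AFT1 (YGL071W, chromosome VII, 372012 to 374084 in sacCer3) encodes 690 residues, and the codon that C291F names, in capitals, is TGT for cysteine in the RefSeq genome (R64, the same assembly). The allele's own sequence was not read, and expression values cannot show it.
AFT1 around the codon of C291F, chrVII:372852-372914, plus strand: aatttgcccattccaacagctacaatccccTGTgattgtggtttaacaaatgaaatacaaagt

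The core of the Aft1 element, TGCACCC, was looked up on both strands in the 500 bases before each start codon. The sites below, in capitals, are from RefSeq R64 and read 5′ to 3′ along the gene, with GGGTGCA where the core lies on the other strand. The first 6 genes are regulon members that were higher in AFT1-C291F, shown as 1 site per gene from several roles. VMR1 is a further reported target. LSO1 and ISU1 hold the same letters and were not 2-fold higher.
FIT2, chrXV:1059254-1059282, plus strand: atttaaaacaaTGCACCCtaagttcaaat
FIT3, chrXV:1061323-1061351, minus strand: agattttttttTGCACCCtgtttgttccg
SIT1, chrV:27458-27486, plus strand: aacacatttgaGGGTGCAatctggttcgt
FET3, chrXIII:388560-388588, plus strand: atcttcaaaagTGCACCCatttgcaggtg
FRE4, chrXIV:739503-739531, plus strand: gtctaaaaattTGCACCCtatttaacata
TIS11, chrXII:416890-416918, minus strand: ccgccgcaaaaTGCACCCacattaaagaa
VMR1, chrVIII:32923-32951, minus strand: cgtttcgaaagGGGTGCActtttaaaaac
LSO1, chrX:448886-448914, minus strand: atcgagaatgtTGCACCCttttttccaat
ISU1, chrXVI:297290-297318, plus strand: ataaggtgcgtTGCACCCcaattagccat

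TGCACCC stood before 140 of 6008 protein-coding genes, or 2.33%. It stood before 22 of the 30 regulon members, or 73.3%. The list was written from general knowledge of Aft1 targets, so this share is no separate evidence. Among the 24 members that were higher, 20 had the element, and 8 of these had it more than once, FIT2 4 times. The 4 without it were FRE1, FTH1, VHT1 and COT1. Of the 6 other members, only LSO1 and ISU1 had it. Outside the list, genes at least 2-fold higher had the element in 18 of 833 windows, or 2.16%, and genes at least 2-fold lower in 10 of 721, or 1.39%. With the length trend removed from the ratios these were 6 of 238, or 2.52%, and 8 of 381, or 2.10%. FIT3 and FRE5 face away from each other and share both of their sites.

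Ratios are differences of log2(FPKM + 1), so they understate the change of low genes, and a ratio of 1 or more is called 2-fold higher. Of 6660 genes, 6174 passed the filter. At least 2-fold higher in AFT1-C291F were 965, or 15.6%, and at least 2-fold lower were 878, or 14.2%. VPS13-D716H, the other library of the table with no deletion, had only 2.21% higher and 2.09% lower than WT replicate 2. Much of this breadth went with gene length. The median ratio was −0.89 for genes under 300 nt, where 45.3% were lower, and 1.65 for genes of 4000 nt and over, where 86.5% were higher. The Spearman correlation of ratio with length over the 6174 genes was 0.60, against −0.11 to 0.35 for the other 5 mutants of the table over the same WT, VPS13-D716H having 0.24. It was 0.26 for mmm1Δ replicate 1 and 0.33 for mdm34Δ over WT replicate 1, and −0.05 for BPS over clean YPD. The AFT1-C291F library also listed 243 genes at 0, against 111 to 160 in the other 6 libraries of the table. The part of length in any result was not tested, but ratios are also given with a smooth trend on log2 length removed, which leaves 7.52% of genes higher and 7.69% lower.

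**Figure D1:**
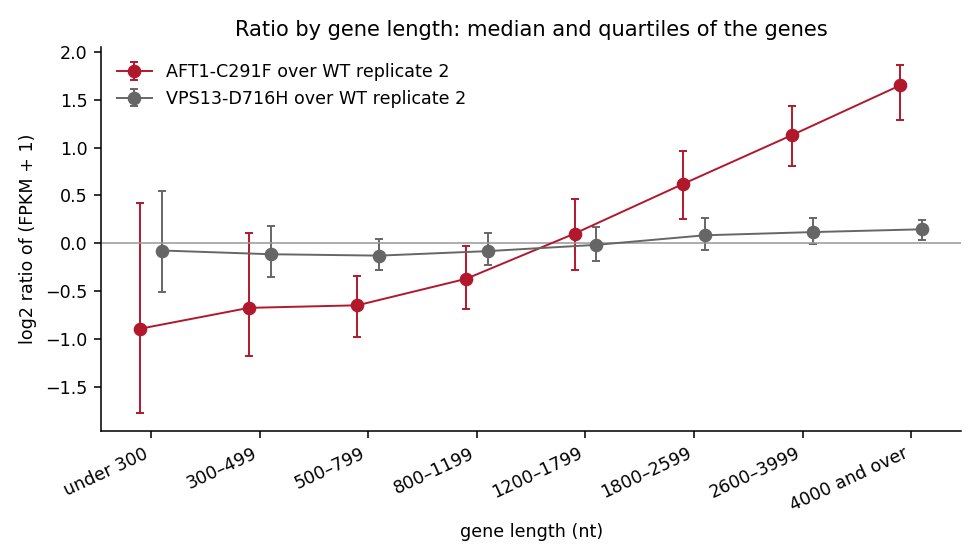
Median log2 ratio of (FPKM + 1) by gene length in nt, with the lower and upper quartile of the genes as bars, for AFT1-C291F over WT replicate 2 and for VPS13-D716H over the same WT. The AFT1-C291F medians run from −0.89 in the shortest genes to 1.65 in the longest, while those of VPS13-D716H lie near 0.

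The genes deleted elsewhere in the series were present in both libraries. MMM1 was at 35.6 FPKM in AFT1-C291F and 37.6 in WT, SAM37 at 30.4 in AFT1-C291F and 39.7 in WT, and MDM34, which overlaps another gene, at 34.5 in AFT1-C291F and 35.7 in WT. URA3, LEU2 and MET17, which BY4741 lacks, were under 1 FPKM in both libraries. Of the 5 strain markers checked, the other 2 passed the filter, HIS3 with a ratio of −1.53 and LYS2 with 1.77. HIS3 also counts among the BY4741 deletions, and how much of it the strains keep was not checked. HIS3 was lowest and LYS2 highest of the 7 libraries in AFT1-C291F. With the length trend removed neither was past 2-fold.

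AFT1 itself had 56.2 FPKM in AFT1-C291F and 10.03 FPKM in WT, a log2 ratio of 2.38. The other 5 mutants of the table lay between 9.16 and 32.5, so AFT1-C291F was the highest of the 7 libraries. With the length trend removed the ratio was 1.80, and AFT1 is 2073 nt long. VPS13-D716H as control gave 1.73. In the table with BPS AFT1 had 57.7 FPKM with BPS and 25.6 FPKM in clean YPD, a ratio of 1.14. No TGCACCC stood in the AFT1 window. AFT2, the paralog that shares many targets, had 38.5 FPKM in AFT1-C291F and 36.5 in WT, a ratio of 0.07. GRX3 (−0.32) and GRX4 (0.31), the glutaredoxins that restrain Aft1, and YAP5 (0.26), which acts when iron is high, were within 2-fold of WT. FRA2, their partner, was at 293 FPKM in AFT1-C291F and 891 in WT, a ratio of −1.60. CTH1, the relative of TIS11 in message decay, was at 39.8 FPKM in AFT1-C291F and 84.1 in WT, a ratio of −1.06. FRA2 and CTH1 were lowest of the 7 libraries in AFT1-C291F. FRA2 is 363 nt long, and with the length trend removed neither was 2-fold lower (−0.88 and −0.69).

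The 30 regulon members had a median ratio of 2.91 over the 28 that passed, beside a median of −0.09 over all 6174 genes. Removing the length trend gave 2.12, again with 24 higher and none lower, where 7.52% of all genes were higher. With VPS13-D716H as control it was 2.26 with 22 higher, where the background was 11.9% of genes. Of the 30, 19 were highest of the 7 libraries in AFT1-C291F, against 29.7% of all genes that passed, and all 19 were among the genes at least 2-fold higher, where the background of highest and 2-fold higher was 13.6%. BPS over clean YPD had 28 of 30 members higher, a median of 2.23 and a background of 3.18%. The plot of the members under both comparisons places them in the order of their roles.

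**Figure D2:**
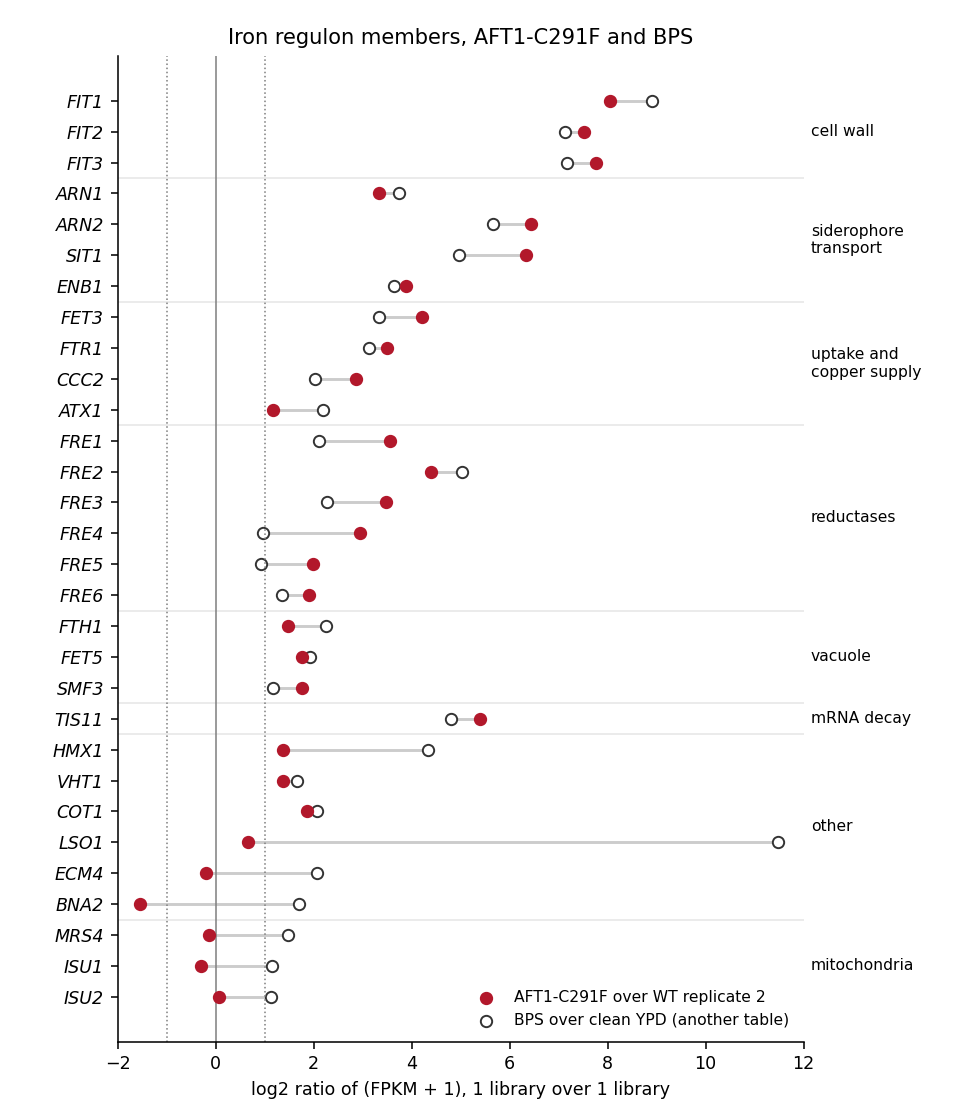
Log2 ratio of (FPKM + 1) of the 30 iron regulon members, AFT1-C291F over WT replicate 2 (filled) and BPS over clean YPD in another table (open), 1 library over 1 library, with dotted lines at 2-fold. FIT1, FIT2 and FIT3 pass 7 in both, while LSO1, ECM4, BNA2, MRS4, ISU1 and ISU2 pass 1 only with BPS.

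The 3 FIT genes encode mannoproteins that hold siderophore-bound iron in the cell wall. FIT1 was at 1026 FPKM in AFT1-C291F and 2.85 in WT, a ratio of 8.06. FIT2 was at 13822 FPKM in AFT1-C291F and 74.1 in WT, a ratio of 7.52. FIT3 was at 11634 FPKM in AFT1-C291F and 52.5 in WT, a ratio of 7.76. These were the 3 highest ratios among genes at least 300 nt long and alone at their locus. FIT1 stood apart within the table: the other 5 mutants had 2.49 to 259 FPKM. FIT3 did not: mmm1Δ replicate 2 had 18121 FPKM and VPS13-D716H sam37Δ had 12484.

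The 4 siderophore transporters import iron bound to chelates made by other microbes. SIT1, which takes up ferrioxamine B, was at 754 FPKM in AFT1-C291F and 8.35 in WT, a ratio of 6.33. ARN2, for triacetylfusarinine, was at 1297 FPKM in AFT1-C291F and 13.9 in WT, a ratio of 6.44, but its locus overlaps another gene. ENB1, for enterobactin, was at 776 FPKM in AFT1-C291F and 51.3 in WT, a ratio of 3.89. All 3 were above the other 6 libraries. ARN1, for ferrichrome, was at 249 FPKM in AFT1-C291F and 23.8 in WT, a ratio of 3.34, and mmm1Δ replicate 2 was higher at 499 FPKM. For SIT1 the control mattered: VPS13-D716H had 26.8 FPKM, and against it the ratio was 4.76. ENB1 had 3.19 over VPS13-D716H.

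High-affinity uptake pairs the ferroxidase FET3, a multicopper enzyme, with the permease FTR1. FET3 was at 2200 FPKM in AFT1-C291F and 118 in WT, a ratio of 4.21. The other 5 mutants had 207 to 814 FPKM, all below AFT1-C291F. FTR1 was at 1448 FPKM in AFT1-C291F and 127 in WT, a ratio of 3.50, again above all 6. Against VPS13-D716H the ratios were 3.03 for FET3 and 2.305 for FTR1. Copper for Fet3 passes through the chaperone ATX1 and the Golgi pump CCC2. CCC2 was at 54.8 FPKM in AFT1-C291F and 6.67 in WT, a ratio of 2.86, or 1.80 with the length trend removed, and its locus overlaps another gene. ATX1 was at 789 FPKM in AFT1-C291F and 349 in WT, a ratio of 1.18, while mmm1Δ replicate 2 had 1763. ATX1 is 222 nt long, and against VPS13-D716H its ratio was 0.33.

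The FRE genes encode metalloreductases that free iron and copper for uptake. All 6 listed were above the other 6 libraries of the table in AFT1-C291F. FRE1, the main ferric and cupric reductase, was at 179 FPKM in AFT1-C291F and 14.1 in WT, a ratio of 3.57, or 2.21 over VPS13-D716H. FRE2 was at 87.7 FPKM in AFT1-C291F and 3.19 in WT, a ratio of 4.40. FRE3, which acts on siderophores, was at 95.9 FPKM in AFT1-C291F and 7.66 in WT, a ratio of 3.48. FRE4 separated the allele from every other library of the table. It was at 92.1 FPKM in AFT1-C291F, 8.40 to 11.6 in the other 5 mutants and 11.03 in WT, a ratio of 2.95. FRE4 was at 27.2 FPKM with BPS and 13.4 in clean YPD, a ratio of 0.97. FRE5 had a ratio of 1.998 and FRE6, a vacuolar reductase, 1.90. These genes are 2061 to 2160 nt long, and with the length trend removed FRE1, FRE2, FRE3 and FRE4 had ratios of 2.998, 3.78, 2.86 and 2.31, FRE5 1.41 and FRE6 1.28.

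The vacuole stores iron and gives it back through FET5 with FTH1, a ferroxidase and permease like those of the surface, and through SMF3. FET5 was at 128 FPKM in AFT1-C291F and 37.0 in WT, a ratio of 1.76. SMF3 was at 198 FPKM in AFT1-C291F and 57.8 in WT, a ratio of 1.76. FTH1 was at 208 FPKM in AFT1-C291F and 74.2 in WT, a ratio of 1.47. Other mutants came close or went past: FTH1 was at 282 FPKM in mmm1Δ replicate 2 and 209 in sam37Δ.

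TIS11 (also CTH2) encodes a zinc finger protein that binds AU-rich messages of iron-using proteins and speeds their decay. It was at 365 FPKM in AFT1-C291F and 7.73 in WT, a ratio of 5.39, and above the other 5 mutants at 10.8 to 243. HMX1, the heme oxygenase that recovers iron from heme, was at 43.7 FPKM in AFT1-C291F and 16.1 in WT, a ratio of 1.38, against 4.33 with BPS. VHT1, the biotin importer, had a ratio of 1.37, and COT1, a vacuolar importer of zinc and cobalt, 1.86.

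**Figure D3:**
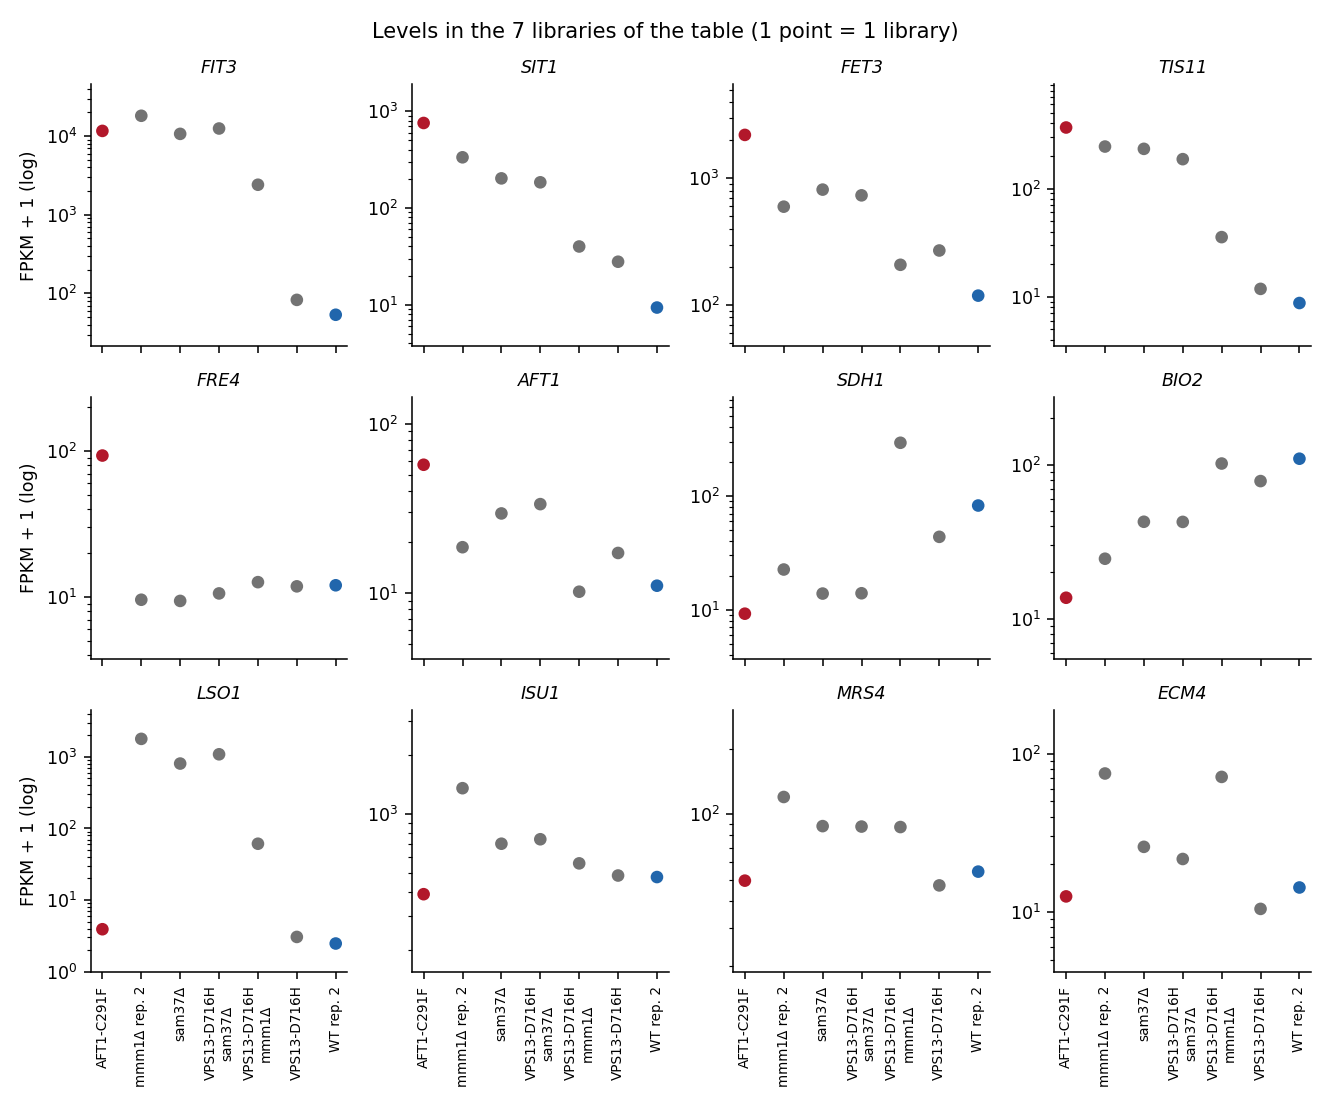
FPKM + 1 on a log axis for 12 genes in the 7 libraries of the table, AFT1-C291F at the left and WT replicate 2 at the right, 1 point per library and no replicates. FRE4 is high only in AFT1-C291F (92.1 FPKM), and LSO1 is low there (2.91 FPKM) but at 1787 FPKM in mmm1Δ replicate 2.

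The 4 members that passed the filter and were within 2-fold of WT act in mitochondria or in detoxification. MRS4, a mitochondrial iron importer, was at 48.5 FPKM in AFT1-C291F and 53.4 in WT, a ratio of −0.14. ISU1 and ISU2, the scaffolds on which iron-sulfur clusters are built, had ratios of −0.29 and 0.06, and both loci overlap another gene. ECM4, a glutathione transferase, had a ratio of −0.19. With BPS the 4 had ratios of 1.48, 1.15, 1.13 and 2.06. mmm1Δ replicate 2 had 119 FPKM for MRS4, 1352 for ISU1 and 73.8 for ECM4, all above AFT1-C291F. Removing the length trend left all 4 within 2-fold (0.29, 0.41, 0.77 and 0.05).

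LSO1 and BNA2 did not reach a mean of 5 FPKM. LSO1 encodes a small protein, and its gene is 282 nt long. It was at 2.91 FPKM in AFT1-C291F and 1.47 in WT, while mmm1Δ replicate 2 had 1787, VPS13-D716H sam37Δ 1088 and sam37Δ 807. With BPS it was at 2846 FPKM, and clean YPD listed it at 0. BNA2, an iron-dependent enzyme of NAD synthesis, was at 1.06 FPKM in AFT1-C291F and 5.01 in WT, and its locus overlaps another gene.

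Set directly against mmm1Δ replicate 2, AFT1-C291F had 10 of 30 members at least 2-fold higher and 6 at least 2-fold lower, with a median ratio of 0.27. In that comparison 17.7% of all genes were higher and 19.3% lower. Over sam37Δ, 12 of 29 were higher and 2 lower, the median was 0.66, and 12.2% of all genes were higher and 12.1% lower. Against the median of the other 6 libraries, several of which hold the regulon high as well, its median ratio was 1.07.

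Among 7 further reported Aft1 targets, 3 were at least 2-fold higher and none lower, with a median ratio of 0.31, where 15.6% of all genes were higher. VMR1, a vacuolar ABC transporter, was at 104 FPKM in AFT1-C291F and 5.74 in WT, a ratio of 3.97. It is 4779 nt long, and the ratio was 2.43 with the length trend removed. AKR1, a palmitoyl transferase, had a ratio of 1.76, and YLR126C one of 1.24. Outside the Aft1 lists, SRO9 and TYW1 stood above every other library of the table in AFT1-C291F. SRO9, which encodes an RNA-binding protein with a La motif, was at 88.1 FPKM in AFT1-C291F, 0.884 to 6.17 in the other 5 mutants and 4.03 in WT, a ratio of 4.15, so it too passed the filter only through AFT1-C291F. TYW1, an iron-sulfur enzyme of transfer RNA modification and a Yap5 target, was at 336 FPKM in AFT1-C291F, 22.8 to 70.3 in the other 5 mutants and 77.0 in WT, a ratio of 2.11. BPS gave SRO9 0.32 and TYW1 −0.39. Neither window holds TGCACCC.

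Iron-using enzymes were lower in part. Of 18 listed iron-sulfur enzymes, 6 were at least 2-fold lower and TYW1 alone higher, with a median of −0.57, where 14.2% of all genes were lower. With the length trend removed 9 were lower, beside 7.69% of all genes, and the median was −1.09, the genes having a median length of 1792 nt. BPS had 13 of 18 lower, a median of −1.83 and a background of 3.91%. BIO2, biotin synthase, was at 12.7 FPKM in AFT1-C291F and 109 in WT, a ratio of −2.999, and BPS gave −2.17. LEU1, isopropylmalate isomerase of leucine synthesis, was at 127 FPKM in AFT1-C291F and 371 in WT, a ratio of −1.54, against −3.87 with BPS. ACO1, aconitase, had a ratio of −1.15.

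The 22 listed genes of mitochondrial cluster assembly had a median of −0.53 with 6 lower and none higher, where 14.2% of all genes were lower. Those furthest down were AIM1 (−1.78), the glutaredoxin GRX5 (−1.59), frataxin YFH1 (−1.52) and ISA1 (−1.27). The median was −0.01 and 2 were lower with the length trend removed, where 7.69% of all genes were lower. Of 8 cytosolic assembly genes, MET18 alone was higher, where 15.6% of all genes were higher. Its ratio was 1.63, or 0.53 with the trend removed.

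Succinate dehydrogenase, which joins the tricarboxylic acid cycle to the respiratory chain, carries iron-sulfur clusters in Sdh2. All 7 listed genes of the enzyme and its assembly were at least 2-fold lower, with a median of −2.47, and all 7 were lowest of the 7 libraries in AFT1-C291F, where 10.7% of all genes were both. SDH2 was at 18.8 FPKM in AFT1-C291F and 268 in WT, a ratio of −3.76. SDH1, the flavoprotein subunit, was at 8.24 FPKM in AFT1-C291F and 81.3 in WT, a ratio of −3.15. SDH3 and SDH4, the membrane anchor, had ratios of −2.96 and −2.47. SDH1 is 1923 nt long, and its ratio was −3.63 with the trend removed, or −2.24 over VPS13-D716H. With the trend removed the list's median over WT was −1.78 with 5 of 7 lower, where 7.69% of all genes were lower. Against VPS13-D716H with the trend removed it was −1.41 with 4 lower, where 5.71% of all genes were higher and 5.9% lower. BPS gave −2.88 for SDH2 and −2.32 for SDH1. Over all 7 genes BPS had 4 lower and a median of −1.37, where 3.91% of all genes were lower.

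The cytochrome bc1 complex passes electrons to cytochrome c and holds the Rieske protein RIP1. All 9 listed subunits were at least 2-fold lower, with a median of −2.18, where 14.2% of all genes were lower. RIP1 was at 50.6 FPKM in AFT1-C291F and 298 in WT, a ratio of −2.53, and CYT1, cytochrome c1, at 21.9 FPKM in AFT1-C291F and 113 in WT, a ratio of −2.32. The small subunits QCR10 and QCR7 had ratios of −2.44 and −2.34. Of the 9, 3 were lowest of the 7 libraries in AFT1-C291F, near the 27.6% of all genes that were lowest there. RIP1 was lower still in VPS13-D716H sam37Δ, at 41.3 FPKM. With the trend removed the median was −1.52 and 7 were lower, beside 7.69% of all genes.

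Cytochrome c oxidase, the last enzyme of the chain, had all 10 listed subunits lower and a median of −1.96, where 14.2% of all genes were lower. Of the 10, only 2 were lowest of the 7 libraries in AFT1-C291F, beside 27.6% of all genes that were lowest there. COX26 was at 8.60 FPKM in AFT1-C291F and 529 in WT, a ratio of −5.79, but the gene is 201 nt long and VPS13-D716H sam37Δ had 7.13. COX4 was at 135 FPKM in AFT1-C291F and 605 in WT, a ratio of −2.15, and COX5A at 155 FPKM in AFT1-C291F and 618 in WT, a ratio of −1.98. For COX4, sam37Δ was lower still, at 70.1 FPKM. With the trend removed the median was −1.24 and 7 were lower, beside 7.69% of all genes. Cytochrome c itself had CYC1 at 47.9 FPKM in AFT1-C291F and 426 in WT, a ratio of −3.12, and CYC7 at 8.79 FPKM in AFT1-C291F and 128 in WT, a ratio of −3.72. VPS13-D716H had 33.5 FPKM of CYC7, and over it the ratio was −1.82, or −1.19 with the trend removed. COX26 had −3.52 over VPS13-D716H. CCP1, the peroxidase that uses cytochrome c, had a ratio of −2.39.

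ATP synthase, which has no iron, had 12 of 16 listed genes lower and a median of −1.23, where 14.2% of all genes were lower. Its genes have a median length of 361 nt, and 33.3% of all genes from 300 to under 500 nt were lower. After removal of the length trend 3 were lower, beside 7.69% of all genes, and the median was −0.55. STF1 and INH1, its small inhibitors, had ratios of −2.91 and −2.03, and STF1 had −1.56 over VPS13-D716H. BPS left the list nearer 0, with 1 of 16 lower and a median of −0.19, where 3.91% of all genes were lower. The 54 mitochondrial ribosomal proteins, encoded by genes with a median length of 706 nt, had 15 lower and a median of −0.76. Of all genes 14.2% were lower, and of those from 500 to under 800 nt 23.0%. None of the 54 was 2-fold lower with the trend removed, and the median was −0.23.

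**Figure D4:**
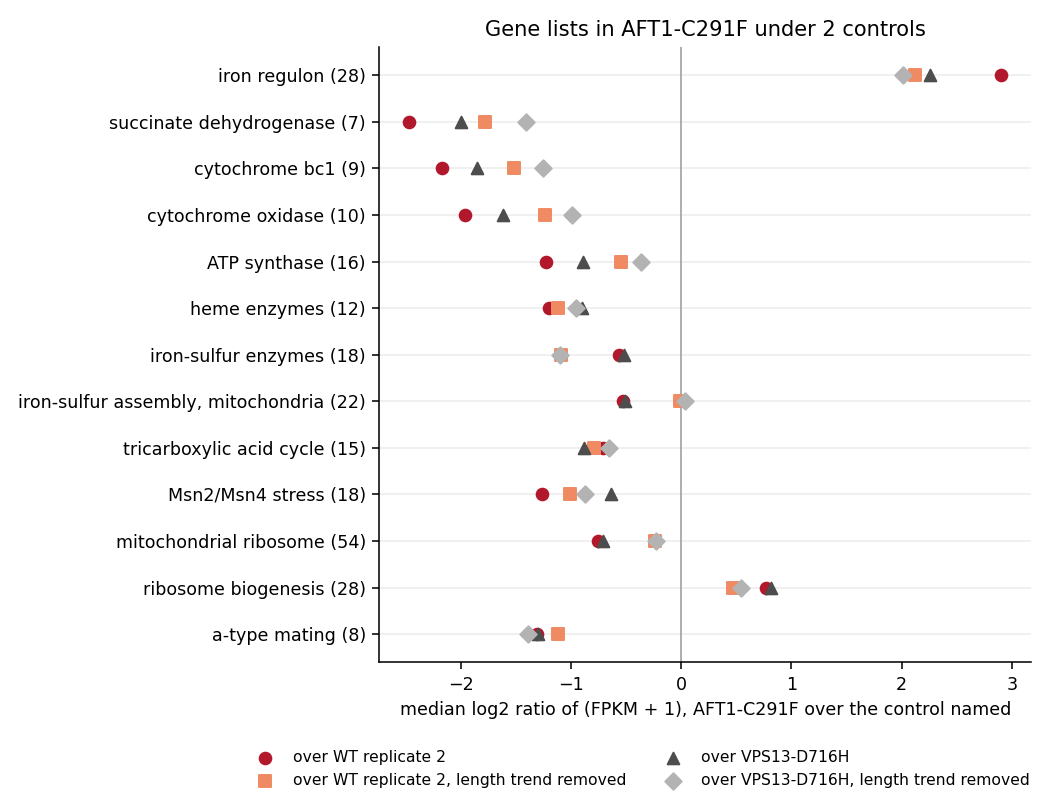
Median log2 ratio of (FPKM + 1) of 13 gene lists, AFT1-C291F over WT replicate 2 or over VPS13-D716H, each as deposited and with the trend on gene length removed; the number of members that passed is in brackets. The iron regulon lies between 2.01 and 2.91 and succinate dehydrogenase between −2.47 and −1.41, while mitochondrial ribosomal proteins lie between −0.76 and −0.23.

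Some lists that moved with BPS or in mmm1Δ did not move the same way with the allele. The 7 retrograde targets, genes that answer mitochondrial failure, had a median of −0.71, against 0.63 with BPS and 0.88 in mmm1Δ replicate 1. CIT1 (−1.11) and ACO1 were at least 2-fold lower in AFT1-C291F, where 14.2% of all genes were lower. ACO1 went the same way with BPS (−1.05) and in mmm1Δ replicate 1 (−0.62). The 3 Yap5 targets had a median of 0.31, against −2.06 with BPS. Anaerobic and hypoxic cell wall genes had a median of −0.19 over 11 members, against 2.63 over 12 in mmm1Δ replicate 1. TIR2, an anaerobic mannoprotein, was at 11.95 FPKM in AFT1-C291F and 40.0 in WT, a ratio of −1.66. Biotin genes, by contrast, split alike with the allele and with BPS. In each, 2 of 6 were higher and 1 lower, with medians of −0.03 and −0.18. Over all genes 15.6% were higher and 14.2% lower in AFT1-C291F, and 3.18% and 3.91% with BPS. BIO2 was lower in both, and the importer BIO5 was at 35.6 FPKM in AFT1-C291F and 6.57 in WT, a ratio of 2.27.

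Stress lists differed in direction against WT replicate 2. Of 18 heat shock genes, 5 were at least 2-fold higher and 1 lower, with a median of 0.56. Of 13 genes of the unfolded protein response, 4 were higher and 1 lower, with a median of 0.52. Over all genes 15.6% were higher and 14.2% lower. With the length trend removed 1 of each list was higher and none lower, where 7.52% of all genes were higher and 7.69% lower. Targets of Msn2 and Msn4, activators of the general stress response, were lower. Of 18 targets of Msn2 and Msn4, 13 were at least 2-fold lower and none higher, with a median of −1.26, where 14.2% of all genes were lower. HXK1, a hexokinase, was at 14.7 FPKM in AFT1-C291F and 629 in WT, a ratio of −5.32. DDR2 was at 45.3 FPKM in AFT1-C291F and 1144 in WT, a ratio of −4.63. GPH1, glycogen phosphorylase, was at 5.46 FPKM in AFT1-C291F and 101 in WT, a ratio of −3.98, and PGM2, phosphoglucomutase, at 20.3 FPKM in AFT1-C291F and 135 in WT, a ratio of −2.68. The size for these genes differed with the control. Against VPS13-D716H the ratios were −2.54, −2.33, −0.88 and −0.36, and 6 of 18 genes were lower with a median of −0.64, where the background was 11.1%. The medians of the list lay closer with the length trend removed, −1.01 over WT with 9 lower and −0.87 over VPS13-D716H with 7 lower. Of all genes 7.69% and 5.9% were then lower. The loci of HXK1 and GPH1 overlap another gene.

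The hexose transporters of low glucose showed the same dependence. HXT7 was at 83.4 FPKM in AFT1-C291F and 958 in WT, a ratio of −3.51, and HXT6, nearly identical in sequence so that its reads cannot be told apart, at 87.6 FPKM in AFT1-C291F and 903 in WT. VPS13-D716H had 114 FPKM of HXT7, sam37Δ 109 and VPS13-D716H sam37Δ 120, and over VPS13-D716H the ratio was −0.45. HXT4 was at 39.5 FPKM in AFT1-C291F and 314 in WT, a ratio of −2.96, or −1.10 over VPS13-D716H. The high libraries for HXT7 were VPS13-D716H mmm1Δ, at 7569 FPKM, and WT replicate 2. The respiratory lists moved less with this control: the medians were −2.002 for succinate dehydrogenase, −1.85 for bc1 and −1.62 for the oxidase.

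**Figure D5:**
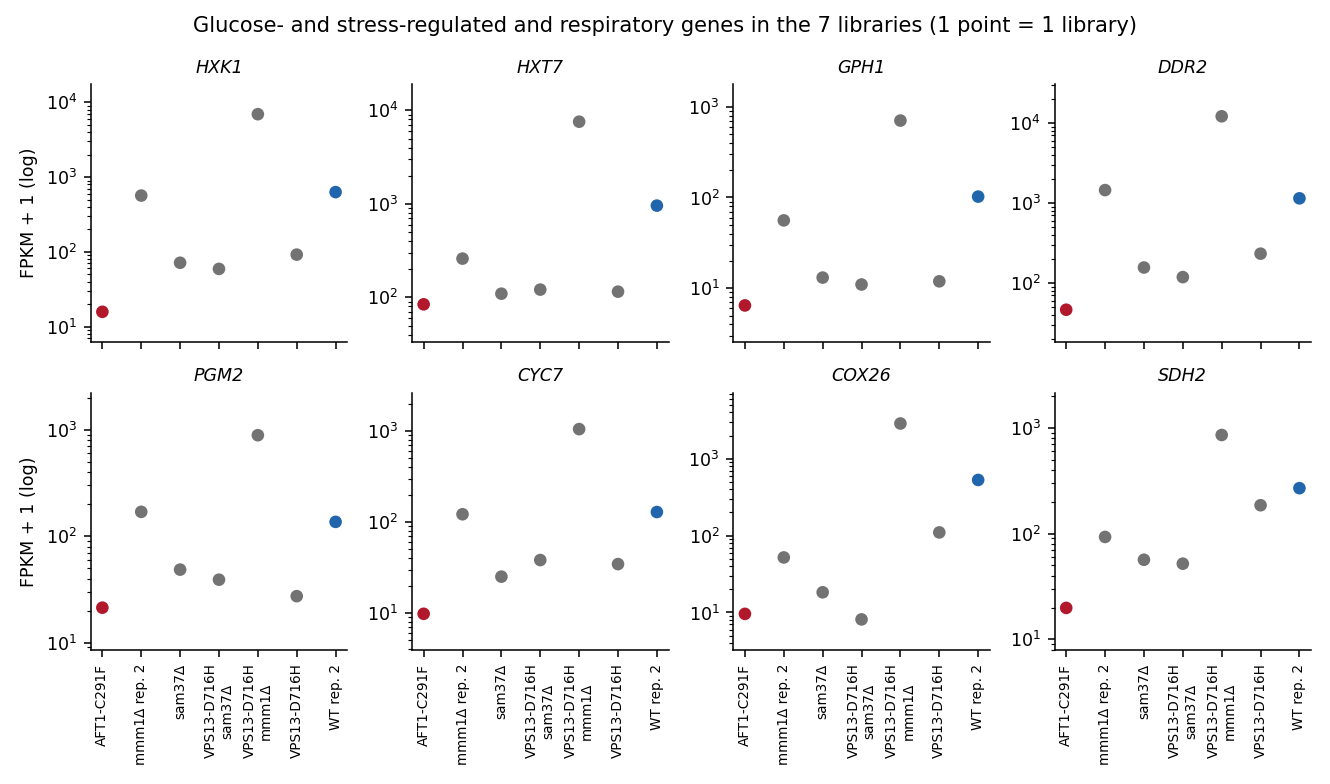
FPKM + 1 on a log axis for 8 glucose-regulated, stress and respiratory genes in the 7 libraries of the table, AFT1-C291F at the left and WT replicate 2 at the right, 1 point per library. HXT7 is near the level of VPS13-D716H (83.4 against 114 FPKM) and far under WT replicate 2 (958), while SDH2 is under both (18.8 against 184 and 268).

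Of the other comparisons with the regulon high, 3 share no library with AFT1-C291F over WT replicate 2. BPS over clean YPD had 28 of 30 members at least 2-fold higher. mmm1Δ replicate 1 over WT replicate 1 had 22 of 27 higher with a median of 2.05, where 8.28% of all genes were higher and 15.8% lower. mdm34Δ over the same WT had 21 of 27 higher with a median of 2.07, where 11.8% of all genes were higher and 23.4% lower. Over 6098 genes that passed in AFT1-C291F and with BPS, the Spearman correlation was 0.10 and Pearson's r was 0.12, given as a description across genes. At least 2-fold higher in both were 64 genes, 6.79% of those higher in AFT1-C291F and 36.6% of those higher with BPS, where 15.4% of the 6098 were higher in AFT1-C291F and 2.87% with BPS. Without the regulon list 42 were higher in both, or 4.58% and 28.2%. At least 2-fold lower in both were 104 genes, 12.2% of those lower in AFT1-C291F and 45.4% of those lower with BPS, where 14.0% of the 6098 were lower in AFT1-C291F and 3.76% with BPS. Another 25 were higher in AFT1-C291F and lower with BPS, and 28 lower in AFT1-C291F and higher with BPS. In all, 229 of the 6098 were lower with BPS and 175 higher. With the length trend removed from both, the Spearman correlation was 0.20, and 71 genes were higher and 86 lower in both. These were 40.8% and 38.1% of those higher and lower with BPS. Of the 6098 genes, 7.10% were then higher and 7.51% lower in AFT1-C291F. The genes lower in both include SDH1, SDH2, CYC1, CCP1, RIP1 and BIO2. mmm1Δ replicate 1 and mdm34Δ over WT replicate 1 gave Spearman correlations of 0.25 and 0.30, or 0.11 and 0.14 with the length trend removed.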

How the data were processed

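The authors deposited FPKM values for 6660 genes in 3 tables, normalized separately, so ratios were taken within a table, and no count or depth came with them. TopHat2 2.0.8, Cuffdiff 2.0.2 and sacCer3 are named per the submitters' processing notes, with roles and settings not given in the sources used here. Low values were whole multiples of a common step for only 6 to 14% of 50 genes per library within 0.05, so reads were not recovered. Libraries had a TruSeq v2 or KAPA stranded kit, per the labels' protocols, with no label of which had which, so overlapping genes cannot be separated. Per gene, log2(FPKM + 1) in AFT1-C291F minus that in WT replicate 2 was taken where the mean of both was at least 5 FPKM. With 1 library a side no test was run and 2-fold (a difference of 1) was the threshold. Members and lists were chosen with earlier results of these data known. Named genes are AFT1 and its regulators, the iron regulon, up to 4 members per other list with the largest ratios past 2-fold, the 10 highest and 10 lowest genes that are 300 nt or longer and overlap no other gene, and label checks. Beside the regulon, 45 lists came from general knowledge of yeast; 8 mitochondrially encoded symbols had no match. Alternatives were pseudocounts of 0.1 and 5, filters of 0 and 20 FPKM, centred ratios, trends on abundance or length (lowess, fraction 0.3, statsmodels 0.14.6) removed, and other controls; the procedure was checked on simulated data. RefSeq R64 matched 5986 names, 5365 with the same coordinates. Python 3.11.15, pandas 2.3.3, numpy 2.4.6 and scipy 1.17.1 were used.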

Additional observations from a re-analysis of the deposited data

How the results depend on the processing

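Of 65 results, each under up to 11 alternatives, 640 values moved by under 1.5-fold (0.1 for correlations) and 75 by more, some list medians within 2-fold changing sign. Removing the length trend, chosen after the data were seen, gave 464 genes higher and 475 lower. It gave medians of 2.12 for the regulon, 2.59 for reductases, 1.02 for further Aft1 targets, −1.78 for succinate dehydrogenase, −1.52 for bc1, −1.24 for cytochrome oxidase, −0.55 for ATP synthase and 0.42 for copper genes. Spearman correlations were then 0.11 with mmm1Δ and 0.14 with mdm34Δ. Shares of their lower genes also lower were 13.5% and 12.8%, and 14.9% of the higher genes of mdm34Δ were higher. Over the genes compared with mmm1Δ and mdm34Δ, 7.22% and 7.27% were lower in AFT1-C291F. Of those compared with mdm34Δ, 7.41% were higher. VPS13 turned to −0.79. With VPS13-D716H as control, medians were 2.26 for the regulon, 7.14 for cell wall genes, 3.97 for siderophore transport, 2.51 for uptake, 2.59 for reductases, 0.93 for further targets and −0.64 for Msn2 and Msn4. With both, 351 genes were higher and 363 lower, and medians were 2.01 for the regulon, 3.64 for siderophore transport, 2.10 for uptake, 2.10 for reductases, 1.11 for vacuole, 1.41 for further targets, 1.02 for Yap5, −1.41 for succinate dehydrogenase, −1.25 for bc1, −0.996 for oxidase, −0.37 for ATP synthase, −0.26 for G1 cyclins and −0.18 for Pdr1 and Pdr3. Spearman correlations were 0.24 with BPS, 0.10 with mmm1Δ and 0.15 with mdm34Δ, with shares of 13.1% (lower, mmm1Δ), 12.9% (higher, mdm34Δ) and 11.1% (lower, mdm34Δ). Of all genes that passed under this setting, 5.71% were higher and 5.9% lower. HSP104 (−0.16), AUS1 (−0.26), SPL2 (0.38) and VPS13 (−0.74) changed sign. Against the median of the other 6 libraries, several with the regulon high, medians were 1.07 for the regulon, 1.52 for cell wall, 1.86 for siderophore transport, 2.09 for uptake, 2.11 for reductases, 0.54 for vacuole, 1.72 for TIS11, 0.14 for other members, −0.67 for further targets, 1.06 for Yap5, −1.84 for succinate dehydrogenase, −1.28 for bc1, −1.24 for oxidase, −1.38 for hypoxic genes, −0.18 for Pdr1 and Pdr3 and −0.49 for a-type genes. Spearman correlations were 0.046 with mmm1Δ and 0.11 with mdm34Δ, and shares 20.4% (higher, BPS), 13.1% (higher, mmm1Δ), 19.7% (lower, mmm1Δ) and 15.7% (higher, mdm34Δ). The shares of all genes under this control are not given here, so these cannot be set against them. HSP104 (−0.046) and SPL2 (0.12) changed sign. Only genes of 300 nt or longer that overlap no other gave 496 lower and medians of 3.89 for siderophore transport, 3.86 for uptake, −0.27 for a-type genes and 1.77 for strain markers (fewer genes). A minimum of 20 FPKM gave 1.04 for biotin and 1.72 for Pdr1 and Pdr3. Removing the abundance trend gave 0.50 for glycolysis and Spearman correlations of 0.11 with mmm1Δ and 0.18 with mdm34Δ. Of 149 named genes past 2-fold, 94 were still so with the length trend removed, 119 against the median of 6, and 116 of 148 against VPS13-D716H, or 65 with the length trend removed as well. Except where stated, the cause was not tested. No paired analysis was possible because AFT1-C291F has 1 library and no replicate number. Leaving out a library was not possible either, so each value rests on 1 library a side, and without counts the depth behind low values is unknown.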

Other observations

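Further gene groups, outside the iron lists, are given as values for the AFT1-C291F library over WT replicate 2. Some of them lay near the shares of all genes. Of 8 genes expressed in a-type cells, 5 were at least 2-fold lower and 1 higher, with a median log2 ratio of −1.31, where 15.6% of all genes were higher and 14.2% lower. The median was −0.27 over those of 300 nt or longer that overlap no other gene. The list was also low in mmm1Δ replicate 1 (6 of 8 lower, median −1.80) and mdm34Δ (6 of 8 lower, median −2.30) over WT replicate 1, where 15.8% and 23.4% of all genes were lower. AGA2, the binding subunit of a-agglutinin, was at 173 FPKM in AFT1-C291F and 2065 in WT, a ratio of −3.57, and 264 nt long. MFA1 and MFA2, which encode the a-factor pheromone in genes of 111 and 117 nt, had ratios of −2.67 and −1.60. With the length trend removed, AGA2 and MFA1 had ratios of −2.81 and −1.95 and MFA2 −0.88. ASG7 was at 9.75 FPKM in AFT1-C291F and 57.6 in WT, a ratio of −2.45.

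Single genes of several lists were highest of the 7 libraries in AFT1-C291F, as were 29.7% of all genes that passed. HAC1, the activator of the unfolded protein response, was at 1189 FPKM in AFT1-C291F and 318 in WT, a ratio of 1.90, or 2.28 with the length trend removed, and its locus overlaps another gene. Of 14 phospholipid genes 1 was at least 2-fold higher and 3 lower, with a median of −0.06, where 15.6% of all genes were higher and 14.2% lower. The higher one, CHO2, which methylates phosphatidylethanolamine, was at 215 FPKM in AFT1-C291F and 47.0 in WT, a ratio of 2.17, or 1.28 with the trend removed. CLN3, the cyclin that starts the cycle, was at 105 FPKM in AFT1-C291F and 29.1 in WT, a ratio of 1.81, or 1.48. Of the 13 G1 cyclin genes that passed, 3 were higher and none lower, with a median of 0.35, beside the same shares of all genes. With the trend removed 2 were higher and the median was −0.04, where 7.52% of all genes were higher. Of 15 phosphate genes 4 were higher and 2 lower, with a median of 0.26, where 15.6% of all genes were higher and 14.2% lower. PHO84, the phosphate importer, was at 2302 FPKM in AFT1-C291F and 863 in WT, a ratio of 1.41, or 1.06. Over VPS13-D716H the ratios were 1.13 for CLN3 and 0.75 for PHO84. Of 28 ribosome biogenesis genes, 9 were at least 2-fold higher, with a median of 0.77, where 15.6% of all genes were higher. Long ones led, RRP5 with 2.38 and RPA190 with 2.31, and with the trend removed none was 2-fold higher and the median was 0.47. The drug transporters PDR5 and SNQ2, of 4536 and 4506 nt, had ratios of 2.45 and 2.04, or 0.96 and 0.55 with the trend removed. PDR5 had 1.78 over VPS13-D716H.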
